A study of Mus musculus with 68 samples.

Results

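The inner cell mass (ICM) and the trophectoderm (TE) of mouse blastocysts were compared after Max, the shared dimerization partner of the MYC family of transcription factors, had been targeted by a morpholino oligonucleotide (MO). The comparison was made of 2 ICM libraries and 2 TE libraries of Max MO embryos, 4 of the 68 libraries of the series, and they were chosen by their labels alone. Fertilized zygotes were injected with a MO against Max, against Mcrs1 or with a random control MO, cultured to the blastocyst and separated into ICM and TE, and each group held 2 libraries. The control libraries carry the treatment entry untreated, but the study describes them as injected with the 25-base random control MO, at a dose that differed from those of the Max MO and the Mcrs1 MO. The study's methods give C57BL/6j as the strain of both parents of fertilized embryos, and all 12 libraries of the morpholino experiment came from fertilized embryos and from no nuclear transfer. Each library was made by Smart-seq2, a full-length method for polyadenylated RNA, from 10 blastomeres per reaction, and was sequenced as 150-base paired-end reads. The study calls the 2 libraries of a group biological replicates, and neither it nor the labels say whether they came from separate injections, so p-values measure the spread between these libraries. Transcript levels are in TPM, which scales for transcript length and for the size of each library, summed per gene symbol.

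The blastocyst holds the first lineages of the mammalian embryo. The TE is a polarized epithelium that pumps fluid into the blastocoel and gives rise to the placenta, and it is set by the transcription factor Cdx2 under the Hippo and TEAD4 pathway. The ICM holds the epiblast, which forms the embryo and expresses Nanog, Pou5f1 and Fgf4, and the primitive endoderm, which lines the epiblast, expresses Gata6, Sox17 and Gata4 in that order and is induced by FGF4 from the epiblast. MAX binds the E-box CACGTG with MYC as an activator or with MXD and MNT proteins as a repressor, and it is also a subunit of PRC1.6, a Polycomb complex that silences germline genes. The question of the comparison was which differences between the lineages remained when Max was reduced. Differences are given as log2 fold changes of ICM over TE on the log2(TPM + 1) scale, which understates the change of genes at low level, and a gene was called different when its limma p-value, adjusted over all genes tested by Benjamini-Hochberg, was under 0.05 and its change at least 2-fold.

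The targeted gene itself, Max (mm10 chromosome 12, 76937269 to 76962248, minus strand), had values of 6.82 and 0.443 TPM in ICM and 16.3 and 8.68 TPM in TE of Max MO embryos. In the control libraries it was at 38.0 and 8.42 TPM in ICM and 34.5 and 28.5 TPM in TE, so in TE both Max MO libraries lay below both control libraries, and in ICM likewise. With the Mcrs1 MO it was at 14.4 and 9.25 TPM in ICM and 17.6 and 15.7 TPM in TE, also below control TE, so a lower level in TE was not particular to the Max MO. The log2 change of Max MO against control was -2.51 ± 0.80 (SE) in ICM, with a limma adjusted p of 0.040, and -1.32 ± 0.80 in TE, with an adjusted p of 0.39. Under Max MO the residual Max transcript did not overlap between the lineages and was lower in ICM by a log2 difference of -1.95 ± 0.80, which did not pass the threshold (adjusted p = 0.147). A MO acts on translation or splicing, so the transcript level is a limited check of the knockdown and the protein was not measured here.

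One library of the control stood apart. Control ICM replicate 1 correlated with the 2 control TE libraries at 0.879 and 0.889 on the log2(TPM + 1) scale and with the other control ICM library at 0.804, while the 2 Max MO ICM libraries correlated with each other at 0.940 and the 2 Max MO TE libraries at 0.961. Over the 30 listed TE genes the summed level was 24625 TPM in control ICM replicate 1 and 1412 TPM in replicate 2. With the Max MO it was 5446 and 9739 TPM in ICM and 31993 and 31919 TPM in TE. TE-enriched RNA was thus measured in every one of these 4 ICM libraries, at different levels, and in libraries of pooled cells fewer cells of a type and less RNA per cell cannot be told apart. All 12 libraries entered the fit and shared 1 estimate of the spread, so control ICM replicate 1 also widened the error of the Max MO comparison, and results that rest on it are given with and without it. The depth in reads is unknown, since the tables hold no counts. Coverage relative to FPKM corresponded to 1.98 and 2.34 aligned gigabases in the Max MO ICM libraries and 3.19 and 3.05 in the Max MO TE libraries, within the 1.00 to 3.19 of the experiment, and 9934 to 10928 genes reached 1 TPM per library.

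Many genes differed between the lineages under Max MO. Of 11219 genes tested, 398 (3.55%) were higher in ICM and 503 (4.48%) were higher in TE, while the median log2 fold change over all genes was -0.03. In control the same fit called 193 genes (1.72%) higher in ICM and 135 (1.2%) higher in TE, and under the Mcrs1 MO it called 0 (0.0%) in each direction, with 756 genes at an unadjusted p under 0.05. Without control ICM replicate 1 the Max MO comparison called 767 of 11146 genes (6.88%) higher in ICM and 1058 (9.49%) higher in TE. A fit of the 4 Max MO libraries alone called 651 of 10880 genes (5.98%) and 778 (7.15%). The counts rested on both libraries of each lineage, since leaving out Max MO ICM replicate 1 or 2 left 240 or 170 genes, and leaving out Max MO TE replicate 1 or 2 left 41 or 124. An exact permutation test of 2 against 2 libraries cannot give a p under 0.333, so that test can call no single gene. The limma calls rest on normal errors and on a spread partly shared across genes.

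Genes of the epiblast and of pluripotency lay on the ICM side, and this list had the most calls in that direction of the 17 lists examined. Of 23 tested genes of the 25 listed, 12 were higher in Max MO ICM and 0 in TE, against 3.55% and 4.48% of all genes, and their median log2 fold change was 2.27. In control 6 of the 23 were called, which were Pou5f1, Klf2, Fgf4, Utf1, Gdf3 and Spp1, and all 6 were among the 12. Esrrb and Fgf5 were under the level filter. Summed over the list, the level was 29489 and 31779 TPM in Max MO ICM against 9774 and 10850 TPM in Max MO TE.

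Nanog (mm10 chromosome 6, 122707489 to 122714633, plus strand), the homeobox factor that defines the epiblast, was at 224 and 284 TPM in Max MO ICM and 69.5 and 89.7 TPM in Max MO TE. The groups did not overlap, and all 4 values lay below those of the same lineage in control, which were 561 and 639 TPM in ICM and 135 and 175 TPM in TE. Its log2 fold change was 1.66 ± 0.50 and missed the threshold (limma adjusted p = 0.060), with an adjusted p of 0.034 without control ICM replicate 1 and of 0.0078 in the Max MO libraries alone. Pou5f1, which encodes the POU factor OCT4, was at 318 and 280.2 TPM in ICM and 89.2 and 85.3 TPM in TE. The libraries of each lineage lay close together and the difference of 1.76 ± 0.24 was called (adjusted p = 0.0037), as was that in control (1.45, adjusted p = 0.018). Sox2, the partner of OCT4, was at 0.886 and 2.62 TPM in ICM and 0.0472 and 0 TPM in TE and was not called.

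Fgf4, the ligand that the epiblast sends to its neighbours, was at 15.4 and 13.2 TPM in Max MO ICM and was listed at 0 in both Max MO TE libraries (adjusted p = 0.0090). With control it was at 32.0 and 8.89 TPM in ICM and 0 and 0.644 TPM in TE, so the ligand was found in ICM libraries with either treatment. Klf2, a Kruppel-like factor of naive pluripotency, was at 13.0 and 21.8 TPM in ICM and 1.04 and 0.613 TPM in TE, a log2 fold change of 3.30 ± 0.59 (adjusted p = 0.011). Its relative Klf4 was at 16.3 and 17.6 TPM in ICM and 3.31 and 2.19 TPM in TE (2.27 ± 0.53, adjusted p = 0.027), while Klf5, which serves both lineages, was at 89.1 and 107 TPM in ICM and 98.3 and 117 TPM in TE and overlapped. Spp1 (mm10 chromosome 5, 104435111 to 104441053, plus strand) encodes osteopontin, a secreted ligand of integrins. It was at 7439 and 4627 TPM in Max MO ICM and 29.5 and 192 TPM in Max MO TE, the third largest difference among the genes named by size (6.26 ± 0.84, adjusted p = 0.0037). Control values were 1489.9 and 1974 TPM in ICM and 22.2 and 147 TPM in TE, so both ICM values were higher with the Max MO and the TE levels overlapped. Max MO ICM against control ICM was not called (1.77 ± 0.84, limma adjusted p = 0.139). The difference between the 2 lineage contrasts was not called either (1.39, adjusted p = 0.653).

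The other called members were Utf1, Gdf3, Otx2, Morc1, Dppa3, Dppa4 and Dppa5a. Utf1, a chromatin protein of pluripotent cells, was at 428 and 823 TPM in ICM and 24.6 and 59.8 TPM in TE, and Gdf3, a TGF-beta family ligand, was at 136 and 155 TPM in ICM and 19.3 and 20.4 TPM in TE. Otx2, a homeobox factor of the later epiblast, was at 14.0 and 8.37 TPM in ICM and was listed at 0 in both TE libraries. The 3 Dppa genes were abundant in both lineages and their differences were small. Dppa5a was at 10116 and 10574 TPM in ICM and 4804 and 3973 TPM in TE (1.24 ± 0.15, adjusted p = 0.0035), and Dppa3 was at 8924 and 12869 TPM in ICM and 3789 and 5252 TPM in TE (1.26 ± 0.26, adjusted p = 0.019). In control the same differences were 0.38 and 0.28 and neither was called. With the trend on transcript length removed, the Max MO differences of Dppa5a, Dppa3 and Dppa4 were 0.66, 0.77 and 0.93, under 2-fold, and those in control 0.51, 0.37 and 0.75, so all 3 calls were lost. Reads of Dppa3 and Dppa5a could be split among their near-identical copies. Tdgf1, the Nodal co-receptor, was at 478 and 565 TPM in ICM, but its TE libraries were at 0 and 49.3 TPM and this spread left it uncalled (adjusted p = 0.059). In the Max MO libraries alone the count was 17 of 22 tested, against 5.98% of all genes, and Nanog, Tdgf1, Prdm14, Enox1 and Bmp4 were added.

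**Figure D1:**
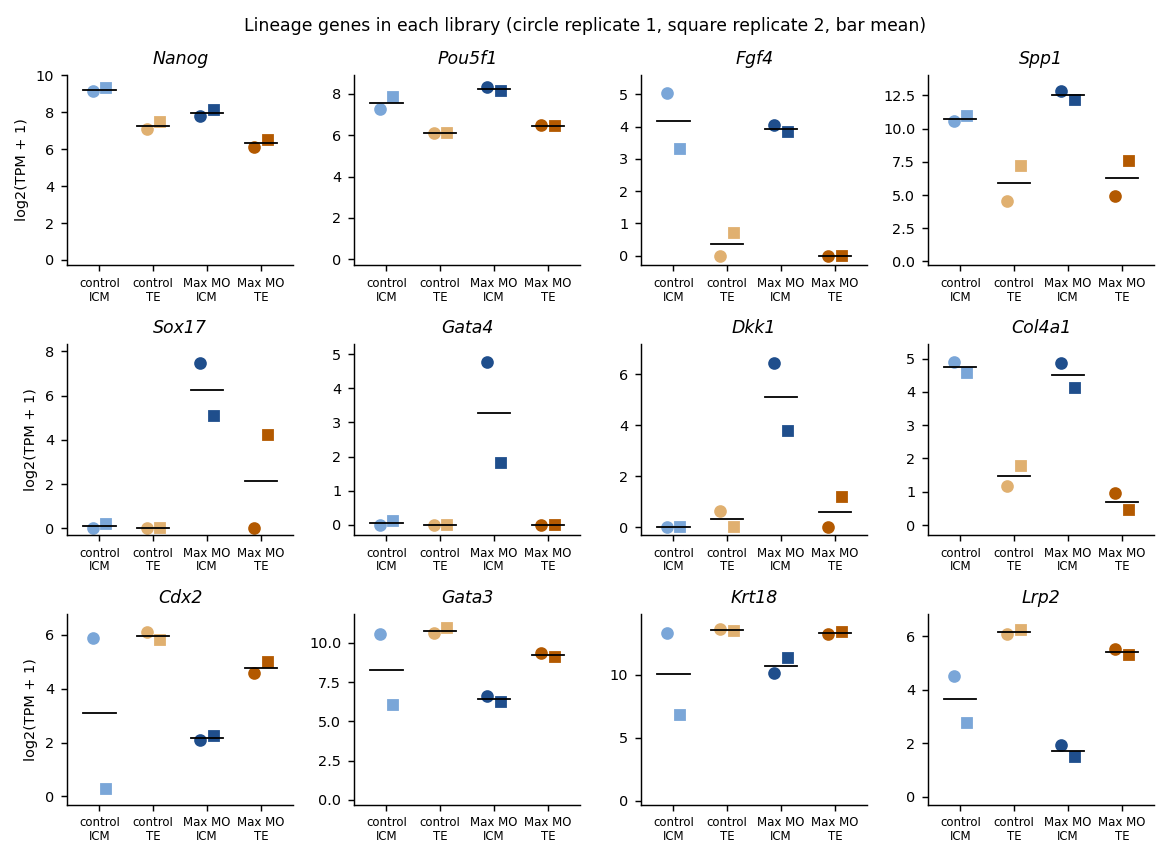
Level of 12 lineage genes in each library, as log2(TPM + 1), for control and Max MO ICM and TE (circle replicate 1, square replicate 2, bar mean of the 2). Spp1, Fgf4 and Pou5f1 separate ICM from TE with either treatment, Sox17, Gata4 and Dkk1 are above 1 TPM in both ICM libraries under Max MO and under it in control, and Cdx2, Gata3 and Krt18 are close to the TE level in control ICM replicate 1 but not in the Max MO ICM libraries.

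Most genes of the primitive endoderm, 18 of the 23 tested, also lay on the ICM side under Max MO. Of 23 tested genes of the 24 listed, 10 were called higher in ICM and 1 in TE, against 3.55% and 4.48% of all genes. The median log2 fold change was 2.12. In the 2 ICM libraries 22 and 23 of the 24 genes reached 1 TPM, against 12 and 16 in the 2 TE libraries. The summed level of the list overlapped between the lineages, at 1291 and 834 TPM in Max MO ICM and 1058 and 1337 TPM in Max MO TE. In control 3 of the 23 were called higher in ICM and 1 in TE, against 1.72% and 1.2% of all genes, and the median was 0.28. Sox17 (mm10 chromosome 1, 4490928 to 4497354, minus strand), an SRY-box factor of this lineage, was at 178 and 32.5 TPM in Max MO ICM and 0 and 17.8 TPM in Max MO TE. In control it was at 0 and 0.133 TPM in ICM and listed at 0 in both TE libraries, so neither control ICM library held it at a level above 1 TPM. The difference under Max MO was 4.16 ± 1.26 and missed the threshold (limma adjusted p = 0.062), although the groups did not overlap, and 1 TE library was close to the lower ICM library on the log scale. It passed without control ICM replicate 1 (adjusted p = 0.036) and missed it in the Max MO libraries alone (adjusted p = 0.081).

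The later factor Gata4 was at 26.1 and 2.52 TPM in Max MO ICM, was listed at 0 in both Max MO TE libraries and was called (adjusted p = 0.035), while it was at or under 0.0808 TPM in every control library. Gata6, the early factor, was at 31.9 and 28.7 TPM in ICM and 20.6 and 21.1 TPM in TE under Max MO, so it was present in both lineages and was not called. Dkk1, a secreted Wnt inhibitor that marks this lineage, was at 86.5 and 12.7 TPM in Max MO ICM and 0 and 1.26 TPM in Max MO TE (4.52 ± 0.91, adjusted p = 0.016). It was listed at 0 in both control ICM libraries. Under the Mcrs1 MO, Sox17, Gata4 and Dkk1 were also above 1 TPM in both ICM libraries, with Sox17 at 38.2 and 22.5 TPM, Gata4 at 6.99 and 14.7 TPM and Dkk1 at 32.7 and 44.5 TPM. The difference between the Max MO and the control lineage contrast was not called for Sox17 (4.07, adjusted p = 0.369), Gata4 (adjusted p = 0.298) or Dkk1 (4.85, adjusted p = 0.203). Replicate 1 carried more of all 3 transcripts than replicate 2 in Max MO ICM.

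Basement membrane and collagen-processing genes made up most of the other calls. Col4a1 and Col4a2, the chains of type IV collagen, were low in Max MO TE. Col4a1 was at 28.5 and 16.2 TPM in Max MO ICM and 0.936 and 0.357 TPM in Max MO TE, and Col4a2 at 9.24 and 8.11 TPM and 0 and 0.442 TPM. Both were called under Max MO and in control (adjusted p = 0.0037 and 0.0091 under Max MO). Of the laminin chains, Lama1 and Lamb1 were called under Max MO and missed the threshold in control, and Lamc1 missed it under Max MO (adjusted p = 0.120). Lama1 was at 31.1 and 16.6 TPM in Max MO ICM and 0.581 and 1.77 TPM in Max MO TE, Lamb1 was at 64.5 and 37.1 TPM and 3.42 and 15.8 TPM, and the difference between the contrasts was called for neither (adjusted p = 0.281 and 0.923). Sparc, a matrix glycoprotein, was at 177 and 186 TPM in ICM and 15.4 and 12.5 TPM in TE (3.62 ± 0.43, adjusted p = 0.0035), and was called in control too. Serpinh1, the chaperone of collagen, was at 14.1 and 22.9 TPM in ICM and 0.0847 and 0.454 TPM in TE, and Srgn, a secretory proteoglycan, at 11.5 and 22.0 TPM and 2.37 and 0 TPM. P4ha2, a prolyl hydroxylase of collagen, was at 115 and 90.1 TPM in ICM and 27.3 and 30.2 TPM in TE. Control values were 59.3 and 53.6 TPM in ICM and 50.4 and 56.8 TPM in TE with a log2 difference of 0.07, and the 2 contrasts differed by 1.72, with an adjusted p of 0.159 in all libraries and of 0.031 without control ICM replicate 1. The endocytic genes that both the primitive endoderm and the TE use lay on the TE side. Lrp2 (megalin) was called at 2.83 and 1.78 TPM in ICM and 45.7 and 39.0 TPM in TE (-3.73 ± 0.50, adjusted p = 0.0037), and the adaptor Dab2 was at 129 and 198 TPM in ICM and 802 and 1021 TPM in TE without a call (adjusted p = 0.458). In the Max MO libraries alone Dab2 was called higher in TE.

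Genes of the TE lay on the TE side under Max MO, and how many passed the threshold depended on the fit. Of 26 tested genes of the 30 listed, 8 were called higher in TE and 0 in ICM, with a median log2 fold change of -2.14. In the Max MO libraries alone 20 of 25 were called higher in TE, against 7.15% of all genes. In control 2 were called with all libraries, and the median moved from -2.37 to -3.86 without control ICM replicate 1. That library had been set apart partly by its level of these same genes, so the move follows from leaving it out. Over all genes tested, 4.48% were called higher in TE and 3.55% in ICM under Max MO, and 1.2% and 1.72% in control. These shares rose without control ICM replicate 1. The TE genes under the level filter were Dlx3, Hand1, Sbsn and Rhox9. Cdx2 (mm10 chromosome 5, 147300900 to 147307249, minus strand), the homeobox factor that specifies the lineage, was at 3.25 and 3.77 TPM in Max MO ICM and 22.8 and 30.8 TPM in Max MO TE. The Max MO groups did not overlap and lay far apart, while control ICM replicate 1 was at 57.7 TPM, within the range of the control TE libraries (68.3 and 54.6 TPM), and control ICM replicate 2 at 0.222 TPM. Its log2 fold change of -2.61 ± 1.26 had a limma adjusted p of 0.209 in all libraries, 0.0015 without control ICM replicate 1 and 0.011 in the Max MO libraries alone.

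Other TE factors and the keratins depended on that library in the same way. Gata3, a zinc finger factor that acts beside Cdx2, was at 97.7 and 72.7 TPM in ICM and 666 and 541 TPM in TE (-2.82 ± 0.99), with an adjusted p of 0.097 in all libraries and 5.4e-05 without control ICM replicate 1. Its relative Gata2 was at 2.03 and 1.56 TPM in ICM and 27.8 and 19.0 TPM in TE, with adjusted p-values of 0.160 and 0.00043. The keratins Krt8 and Krt18, the filament pair of the first epithelium, were the most abundant members. Krt18 was at 1097 and 2572 TPM in Max MO ICM and 9675 and 10866 TPM in Max MO TE, with adjusted p-values of 0.273 and 0.00062. In control it was at 10274 and 108 TPM in ICM and 12846 and 11171 TPM in TE. Krt8 was at 1509.8 and 3172 TPM in Max MO ICM and 9192 and 9671 TPM in Max MO TE (adjusted p = 0.208 and 0.00067). Every Max MO ICM library thus held less of these keratins than every Max MO TE library, and more than control ICM replicate 2.

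The members called in all libraries were Eomes, Lrp2, Atp1b1, Slc2a3, Lgals3, Ptges, Klf6 and Gm2a. Eomes, a T-box factor of the TE, was at 9.94 and 3.46 TPM in ICM and 36.0 and 30 TPM in TE (-2.28 ± 0.62, adjusted p = 0.044). Slc2a3, a glucose transporter, was at 38.1 and 35.5 TPM in ICM and 181 and 157 TPM in TE (-2.17 ± 0.51, adjusted p = 0.027). Ptges, a prostaglandin E synthase, was called under Max MO (-1.56, adjusted p = 0.048) and in control (-1.97, adjusted p = 0.041). Tfap2c, an AP-2 factor, was at 52.2 and 75.2 TPM in ICM and 61.6 and 80.3 TPM in TE, which overlapped, and the surface antigen Ly6a was at 257 and 41.5 TPM in ICM and 24.1 and 66.7 TPM in TE, the only tested member besides Ascl2 with a positive log2 fold change. For each TE gene with a mean of at least 5 TPM in TE, the ICM level was set against the mean TE level of the same treatment. The median over 24 genes was 15.9% in Max MO ICM replicate 1 and 26.0% in replicate 2, against 69.8% and 3.58% over 25 genes in the 2 control ICM libraries and 79.2% and 66.3% over 23 genes in the 2 Mcrs1 MO ICM libraries. The share of TE signal in the Max MO ICM libraries therefore lay between those of the 2 control ICM libraries.

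**Figure D2:**
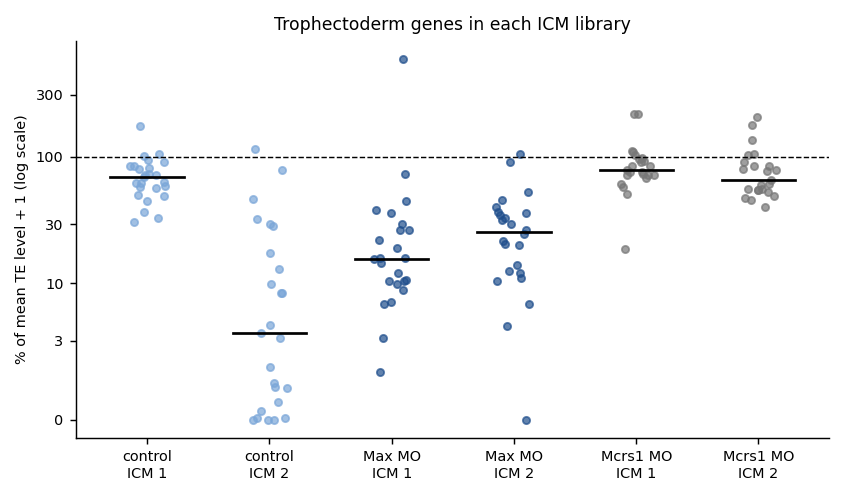
Level of each TE gene in each ICM library as a percentage of its mean level in the TE libraries of the same treatment, plus 1, on a log axis (points genes, bars medians, dashed line equal to TE). The medians are 69.8% and 3.58% in control, 15.9% and 26.0% under Max MO and 79.2% and 66.3% under the Mcrs1 MO.

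Junction, polarity and blastocoel genes lay mostly on the TE side under Max MO. Of 28 tested, 9 were called higher in TE and 2 in ICM, with a median log2 fold change of -1.43, against 4.48% and 3.55% of all genes, and in control 1 was called, higher in ICM. In the Max MO libraries alone the counts were 17 in TE and 2 in ICM, against 7.15% and 5.98% of all genes. The control median was -0.81 with all libraries and -1.24 without control ICM replicate 1. Tight junction genes made up most of the 9 calls in TE. Ocln (occludin) was at 8.49 and 15.8 TPM in Max MO ICM and 54.8 and 60.3 TPM in Max MO TE (-2.21 ± 0.41, adjusted p = 0.012). In control it was at 51.9 and 103 TPM in ICM and 88.0 and 53.2 TPM in TE, which overlapped, and the 2 lineage contrasts differed by -2.31, with an adjusted p of 0.187 in all libraries and of 0.017 without control ICM replicate 1. Neither control ICM library was as low as the Max MO ICM libraries.

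Of the claudins, the sealing proteins of the junction, Cldn4 was at 43.5 and 45.4 TPM in ICM and 276 and 252 TPM in TE, Cldn6 at 24.5 and 54.4 TPM in ICM and 146 and 152 TPM in TE, and Cldn7 at 235 and 256 TPM in ICM and 621 and 710.0 TPM in TE. All 3 were called, as was the junction scaffold Cgn, and Cldn4 and Cldn7 lay close together within each lineage. Cdh1, the cadherin of compaction, was at 30.9 and 29.6 TPM in ICM and 69.8 and 65.8 TPM in TE (-1.14, adjusted p = 0.045), and Pard6b, a polarity protein of the apical domain, at 5.15 and 2.88 TPM in ICM and 18.5 and 14.3 TPM in TE (adjusted p = 0.029). Atp1b1, the beta subunit of the sodium pump that drives blastocoel fluid, was at 48.1 and 83.7 TPM in ICM and 201 and 158 TPM in TE (-1.48 ± 0.30, adjusted p = 0.017). The water channel Aqp3 was at 51.6 and 71.4 TPM in ICM and 62.3 and 57.5 TPM in TE and overlapped. The 2 members called higher in ICM were Ezr (ezrin), at 133 and 185 TPM in ICM and 43.1 and 80.0 TPM in TE, and the water channel Aqp8, at 70.4 and 69.3 TPM in ICM and 0.250 and 2.60 TPM in TE.

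Of 20 tested genes of the Hippo pathway, which relays cell position to Cdx2, 3 were called higher in Max MO TE and 1 in ICM, against 4.48% and 3.55% of all genes, with a median of -0.89. In control 0 were called higher in TE by limma and 1 in ICM. Ctgf, a target of YAP and TEAD, was at 58.7 and 32.5 TPM in ICM and 0.710 and 0.422 TPM in TE (4.84 ± 0.96, adjusted p = 0.016) and was called in control as well (4.19). Its relative Cyr61 was at 32.0 and 63.1 TPM in ICM and 4.65 and 15.6 TPM in TE and was not called. These 2 targets had higher values in ICM, whereas the regulators Wwc1, Limd1 and Vgll4 were called on the TE side. Vgll4, a competitor of YAP for TEAD, was at 5.76 and 5.06 TPM in ICM and 50 and 33.6 TPM in TE (-2.71 ± 0.68, adjusted p = 0.034). Yap1 was at 4.91 and 2.65 TPM in ICM and 5.16 and 6.62 TPM in TE and Tead4, the factor upstream of Cdx2, at 23.9 and 32.8 TPM in ICM and 55.4 and 67.3 TPM in TE, and neither was called. In the Max MO libraries alone the counts were 6 higher in TE and 2 in ICM, against 7.15% and 5.98% of all genes.

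The median log2 fold change of the FGF and ERK signal genes was 0.04 and turned to -0.04 when TPM were rescaled over annotated genes. Of 19 tested, 3 were called and all were higher in Max MO ICM, against 3.55% of all genes. They were the ligands Fgf4 and Fgf10 and Etv5, an ETS factor induced by this signal, which was at 34.7 and 51.5 TPM in ICM and 0 and 1.18 TPM in TE (4.87 ± 0.89, adjusted p = 0.012) and was called in control at 4.82. Fgf10 was at 17.3 and 5.28 TPM in ICM and was listed at 0 in all 4 TE libraries of both treatments. The receptor Fgfr1 was at 9.14 and 6.53 TPM in ICM and 7.87 and 9.07 TPM in TE, and Fgfr2 at 15.7 and 15.1 TPM in ICM and 29.3 and 27.2 TPM in TE, and neither was called. Dusp4, a phosphatase of ERK, was at 141 and 53.8 TPM in ICM and 8.73 and 17.0 TPM in TE, without overlap but also without a call (adjusted p = 0.118). Of 23 tested genes of the Nodal, BMP and Wnt signals, Dkk1 and Id3 were called higher in ICM and Bmpr1a higher in TE, against 3.55% and 4.48% of all genes. In the Max MO libraries alone the counts were 4 in ICM and 3 in TE, against 5.98% and 7.15% of all genes. Id3, a target of BMP, was at 83.8 and 131 TPM in ICM and 0.474 and 11.4 TPM in TE (4.63 ± 1.10, adjusted p = 0.028). Bmpr1a, a BMP receptor, was at 3.58 and 4.82 TPM in ICM and 13.6 and 17.7 TPM in TE, and the ligand Bmp4 was at 22.2 and 11 TPM in ICM and listed at 0 in both TE libraries (adjusted p = 0.085).

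With all 12 libraries, the lists of the partners, complexes and germline targets of MAX had 0 to 2 calls each in either direction. Of all genes, 3.55% were higher in ICM and 4.48% higher in TE. Of 11 tested genes of the MAX network 0 were called by limma, 0 also without control ICM replicate 1 and 0 in the Max MO libraries alone, and the median was -0.10. Myc was at 12.6 and 29.3 TPM in ICM and 18.8 and 14.5 TPM in TE, Mycn at 14.5 and 28.2 TPM in ICM and 27.1 and 17.4 TPM in TE, and the groups overlapped for both. Mga, the large PRC1.6 subunit that pairs with MAX, was at 2.97 and 4.00 TPM in ICM and 5.97 and 6.10 TPM in TE. Of the 12 PRC1.6 subunits only the ubiquitin ligase Rnf2 was called, higher in TE (56.6 and 46.3 TPM in ICM, 155 and 114 TPM in TE, adjusted p = 0.018). Of 18 tested germline genes of the kind that PRC1.6 silences, 2 were called and both were higher in ICM. Dazl, an RNA-binding protein of germ cells, was at 22.4 and 5.70 TPM in ICM and listed at 0 in both TE libraries (adjusted p = 0.020), and in control it was at 0.153 and 1.52 TPM in ICM and 0 and 0.497 TPM in TE. Rec8, the meiotic cohesin, was at 5.58 and 9.62 TPM in ICM and 0.0537 and 0.158 TPM in TE under Max MO and was called in control too. The germline helicase Ddx4 was at 16.0 and 14.3 TPM in ICM and 0 and 8.23 TPM in TE and was not called. The other 15 germline genes tested were not called either. Of the 18, 15 had a positive log2 fold change under Max MO and 12 in control, with medians of 0.96 and 0.17. The control median was 0.96 without control ICM replicate 1. The number of germline genes called varied with the fit. In the Max MO libraries alone, 2 of 19 germline genes were called higher in ICM and 1 in TE, against 5.98% and 7.15% of all genes.

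Of the lists of general cell processes each had at most 1 call in either direction, against 3.55% and 4.48% of all genes. Of 31 tested genes of nucleolus and ribosome assembly only Utp20, a factor of ribosomal RNA processing, was called, at 1.09 and 2.39 TPM in ICM and 10.1 and 6.31 TPM in TE. Of 24 chromatin and DNA methylation genes only Suz12, a PRC2 subunit, was called, at 20.9 and 21.0 TPM in ICM and 44.5 and 45.5 TPM in TE (-1.07 ± 0.24, adjusted p = 0.025). Of 19 tested genes of the p53 response, Trp53 itself was called higher in ICM, at 286 and 416 TPM in ICM and 51.6 and 97.8 TPM in TE (2.26 ± 0.42, adjusted p = 0.012), and it was called in control too (2.21, adjusted p = 0.029). The median log2 fold change of the list was -0.88 under Max MO and 0.12 in control. Of the 19, 4 had a positive value under Max MO and 10 in control. Among those with higher values in TE were 3 p53 targets. Ccng1, a cyclin induced by p53, was at 79.5 and 55.1 TPM in ICM and 186 and 247 TPM in TE (-1.68 ± 0.33, adjusted p = 0.015). Mdm2, the ligase that p53 induces against itself, was at 66.8 and 53.6 TPM in ICM and 126 and 222 TPM in TE, and Cdkn1a, the cell cycle inhibitor, was at 18.1 and 9.76 TPM in ICM and 32.0 and 88.1 TPM in TE, both without a call. Of 12 genes that every cell expresses, Ldha was called higher in ICM and Hprt higher in TE (944 and 982 TPM in ICM, 2383 and 2808 TPM in TE). In the Max MO libraries alone, 4 genes of the p53 list were called higher in TE and 1 in ICM, against 7.15% and 5.98% of all genes. Of the 5 sex-linked genes 0 were called by limma with all libraries, and 1 in the Max MO libraries alone.

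Markers of the cells that surround an oocyte were near 0, and maternal transcripts were present. Of 14 listed genes of cumulus and granulosa cells 2 passed the level filter and 0 were called, and their summed level was 2.83 to 14.4 TPM in the Max MO libraries, with the defining genes Amh, Cyp19a1 and Has2 listed at 0. Of 14 listed genes of the oocyte and zona 6 passed the filter and 2 were called higher in ICM, against 3.55% of all genes. They were Zp2 (4.69 and 3.63 TPM in ICM, listed at 0 in both TE libraries) and Khdc3 (5199.5 and 6432 TPM in ICM and 2666 and 2683 TPM in TE). The summed level of that list was 5295 and 6545 TPM in Max MO ICM and 2716 and 2732 TPM in Max MO TE, nearly all of it Khdc3, a maternal complex gene, while Bmp15, Zp1 and Mos were listed at 0. The part of retained maternal RNA in the ICM differences was not tested.

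**Figure D3:**
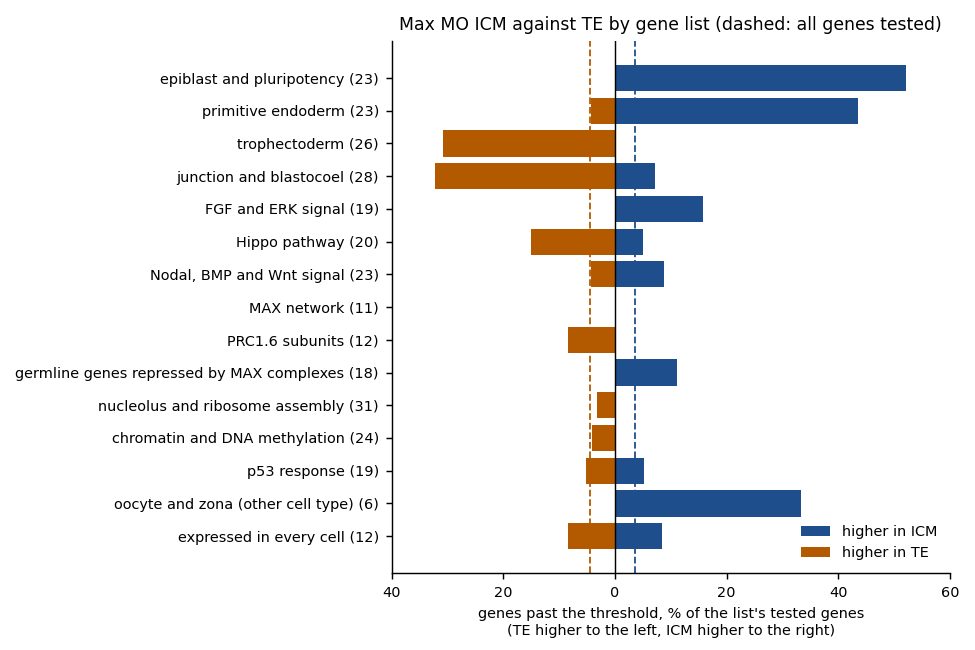
Share of the tested genes of each list called higher in Max MO ICM (right) or TE (left), with the number tested in brackets and dashed lines at the shares over all genes tested, 3.55% and 4.48%. Epiblast (12 of 23) and primitive endoderm (10 of 23) genes extend to the right and TE (8 of 26) and junction (9 of 28) genes to the left, while the MAX network (0 of 11) has no bar.

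The largest differences under Max MO were named by rule, as the 10 in each direction with the largest change among called genes with a mean of at least 5 TPM and no overlap between the lineages. Over all genes tested, 29.9% did not overlap with ICM higher and 32.3% with TE higher. Towards ICM they were Upp1, 1700013H16Rik, Spp1, Ephx2, Timp1, Tdh, Gm5662, Nr0b1, Spic and Ldha. Upp1 (mm10 chromosome 11, 9118008 to 9136170, plus strand), a uridine phosphorylase, was at 2039 and 1458 TPM in ICM and 1.48 and 38.3 TPM in TE, the largest of all (7.45 ± 1.26, adjusted p = 0.0094). Control embryos held 438 and 466 TPM in ICM and 1.48 and 44.4 TPM in TE, and the difference was called there as well (5.42). Both ICM values were higher with the Max MO, but Max MO ICM against control ICM was not called (1.93 ± 1.26, limma adjusted p = 0.277). Enzymes of metabolism were several of the others. Tdh, the threonine dehydrogenase used by mouse pluripotent cells, was at 62.2 and 52.8 TPM in ICM and 0 and 0.944 TPM in TE, Ephx2, an epoxide hydrolase, at 60.8 and 72.7 TPM in ICM and 0 and 0.0455 TPM in TE, and Ldha, the A subunit of lactate dehydrogenase, at 137 and 97.2 TPM in ICM and 0.879 and 4.08 TPM in TE. The libraries of both lineages were far apart for all 3.

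The transcription factors among them were Nr0b1 and Spic. Nr0b1, an orphan nuclear receptor of pluripotent cells, was at 61.2 and 23.5 TPM in ICM and was listed at 0 in both TE libraries (adjusted p = 0.034). Spic, an ETS family factor, was at 238 and 485 TPM in ICM and 2.68 and 21.3 TPM in TE (5.24 ± 1.03, adjusted p = 0.015), and at 859 and 1016 TPM in control ICM and 16.5 and 210.4 TPM in control TE. Timp1, a secreted inhibitor of metalloproteinases, was at 87.5 and 27.7 TPM in ICM and was listed at 0 in both TE libraries. 1700013H16Rik, an X-linked gene of unnamed function, was at 153 and 87.0 TPM in Max MO ICM and 0 and 1.28 TPM in Max MO TE (6.27 ± 1.18, adjusted p = 0.013). It was under 1 TPM in all 4 control libraries, and the 2 lineage contrasts differed by 6.10, which was not called (adjusted p = 0.209, and 0.088 without control ICM replicate 1).

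Towards TE they were Actc1, Il1rn, Mir5116, Lrp2, Gsdma3, Glrb, Jade1, Frk, Msn and Kbtbd13. Msn (moesin), which ties actin to the apical membrane, was the most abundant, at 15.6 and 14.2 TPM in ICM and 177 and 159.7 TPM in TE (-3.41 ± 0.72, adjusted p = 0.020), while its relative Ezr was higher in ICM as given above. Il1rn, the antagonist of the interleukin 1 receptor, was at 4.31 and 0 TPM in ICM and 37.5 and 32.5 TPM in TE. Frk, a SRC-related kinase, was at 2.27 and 4.09 TPM in ICM and 40.6 and 47.0 TPM in TE, and Jade1, a subunit of a histone acetyltransferase complex, at 2.69 and 1.76 TPM in ICM and 30 and 41.1 TPM in TE. Actc1, the cardiac actin, was listed at 0 in both ICM libraries and was at 21.7 and 18.0 TPM in TE. In control, Jade1 was at 9.66 and 18.0 TPM in ICM and 9.34 and 35.3 TPM in TE, which overlapped, and Msn was at 293 and 31.5 TPM in ICM and 581 and 397 TPM in TE. The value of Mir5116, a microRNA gene, cannot be told apart from longer transcripts over the same position.

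Promoter sequences were read because MAX binds CACGTG, and they show where that letter string lies in genes at the ends of the comparison. Of the called genes named here with a CACGTG, the 2 with the largest difference in each direction are printed, each from 250 bases before to 50 bases after the annotated start, 5′ to 3′ on the strand of the gene, from RefSeq on GRCm38.p6, with CACGTG in capitals. Ldha (chr7:46845554-46845853, plus strand) and Aqp8 (chr7:123462044-123462343, plus strand) were higher in ICM, and Jade1 (chr3:41564630-41564929, plus strand) and Msn (chrX:96095795-96096094, plus strand) were higher in TE.
Ldha: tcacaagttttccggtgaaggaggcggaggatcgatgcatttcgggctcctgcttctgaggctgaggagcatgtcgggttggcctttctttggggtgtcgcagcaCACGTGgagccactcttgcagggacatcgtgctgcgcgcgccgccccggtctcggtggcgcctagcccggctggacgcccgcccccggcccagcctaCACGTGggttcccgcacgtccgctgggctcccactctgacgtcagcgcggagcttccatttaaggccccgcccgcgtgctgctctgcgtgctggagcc
Aqp8: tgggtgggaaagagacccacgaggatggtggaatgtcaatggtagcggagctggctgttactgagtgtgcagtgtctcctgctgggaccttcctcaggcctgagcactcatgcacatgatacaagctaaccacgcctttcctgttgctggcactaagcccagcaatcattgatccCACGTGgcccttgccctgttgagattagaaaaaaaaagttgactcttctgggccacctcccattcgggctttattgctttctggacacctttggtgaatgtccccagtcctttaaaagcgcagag
Jade1: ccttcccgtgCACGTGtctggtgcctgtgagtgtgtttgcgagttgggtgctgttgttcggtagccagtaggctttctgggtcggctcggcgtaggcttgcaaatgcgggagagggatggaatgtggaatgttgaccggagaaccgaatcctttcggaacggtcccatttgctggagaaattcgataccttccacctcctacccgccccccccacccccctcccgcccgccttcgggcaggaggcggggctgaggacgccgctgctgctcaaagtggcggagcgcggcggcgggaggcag
Msn: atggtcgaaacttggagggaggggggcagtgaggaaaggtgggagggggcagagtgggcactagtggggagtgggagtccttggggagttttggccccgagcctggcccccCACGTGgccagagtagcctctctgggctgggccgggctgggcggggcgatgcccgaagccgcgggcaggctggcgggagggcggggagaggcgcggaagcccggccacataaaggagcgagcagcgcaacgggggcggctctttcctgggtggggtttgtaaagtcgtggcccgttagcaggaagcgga
The Ldha window held 2 copies and the others 1. CACGTG, which reads the same on both strands, was in 2349 of 32851 promoters (7.15%) and in 1097 of 10602 promoters of genes tested (10.3%). It was in 40 of 353 promoters of genes higher in ICM (11.3%) and in 54 of 467 of genes higher in TE (11.6%), close to the share of the genes tested. GGAATG or CATTCC, the string that TEAD factors bind and its reverse complement, was in 1290 of 10602 promoters of genes tested (12.2%) and in 4817 of all 32851 (14.7%). It was in 53 of 353 promoters of genes higher in ICM and in 57 of 467 of genes higher in TE (12.2%). A match describes the letters of the window and shows no binding.

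Of the 328 genes that differed between the lineages in control, 120 (36.6%) were also called under Max MO in the same direction, which was 13.3% of the 901 genes called under Max MO, and 0 were called in the opposite direction. Towards ICM these were 86 genes, 44.6% of the control calls and 21.6% of the Max MO calls, and towards TE 34 genes, 25.2% and 6.76%. Over all genes tested, 3.55% were called higher in ICM and 4.48% higher in TE under Max MO. Both comparisons took the spread of each gene from the same fit, so their calls are not independent and the overlap was not tested. Genes called in one comparison are on average larger there, so each list was read in both. The control ICM genes had a median log2 fold change of 2.60 in control and 1.47 under Max MO, and 171 of 193 kept their sign, and the control TE genes had medians of -2.51 and -0.86, with 114 of 135 of the same sign. Read from the Max MO lists, the medians were 2.07 under Max MO and 0.88 in control for ICM genes and -1.68 and -0.56 for TE genes, with 345 of 398 and 433 of 503 of the same sign. The median of either list was thus smaller in the comparison that had not chosen it. Without control ICM replicate 1 the control comparison called 931 genes (8.35%) higher in ICM and 1352 (12.1%) higher in TE, and 750 of these 2283 genes (32.9%) were shared in direction, 41.1% of the Max MO calls, with 25 called in opposite directions. Leaving out 1 Max MO or control library at a time gave 1 to 750 shared genes, the lowest without control TE replicate 1. The control calls also drew on the spread of the Mcrs1 MO libraries, since a fit of the 8 Max MO and control libraries called 192 genes under Max MO and 0 in control with limma, so that 0 were shared.

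The genes that differed most in both comparisons were named by the smaller of their 2 changes. Towards ICM they were Upp1, Spp1, Etv5, Ldha and Tcl1. Tcl1, a coactivator of the kinase AKT, was at 199.9 and 105 TPM in Max MO ICM and 3.65 and 8.82 TPM in Max MO TE (4.43, adjusted p = 0.012) and at 97.7 and 235 TPM in control ICM and 0 and 7.12 TPM in control TE (5.74, adjusted p = 0.013). Towards TE they were Stag2, Oas1f, Gsdma3, AA986860 and Lrp2. Stag2, a cohesin subunit on the X chromosome, was at 5.54 and 0.793 TPM in Max MO ICM and 44.1 and 23.6 TPM in Max MO TE (-3.28, adjusted p = 0.013) and at 1.92 and 5.32 TPM in control ICM and 90.9 and 60.1 TPM in control TE (-4.12, adjusted p = 0.014). Gsdma3, a gasdermin, was at 0 and 0.0387 TPM in Max MO ICM and 11.3 and 12.7 TPM in Max MO TE and at 0 and 0.960 TPM in control ICM and 6.91 and 12.9 TPM in control TE. The ICM and TE libraries of these genes did not overlap with either treatment.

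**Figure D4:**
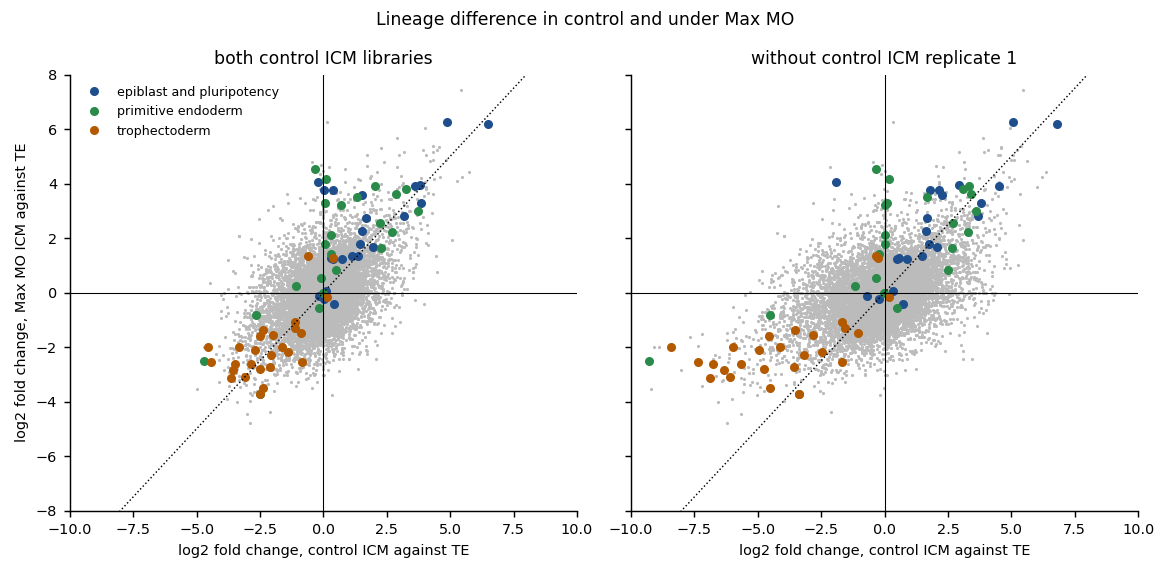
Log2 fold change of ICM over TE in control (horizontal axis) and under Max MO (vertical axis) for each gene tested (grey), with epiblast, primitive endoderm and TE genes in colour and a dotted line where both are equal, in all libraries (left) and without control ICM replicate 1 (right). Most TE genes (24 of 26) lie below 0 on each axis in all libraries, and their median in control moves from -2.37 to -3.86 when that library is left out, while it stays at -2.14 under Max MO.

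The test of the difference between the lineage contrasts of Max MO and control called 0 of 11219 genes (0.0% above 0 and 0.0% below 0) with limma in all libraries, with 1473 genes at an unadjusted p under 0.05. Without control ICM replicate 1 it called 356 genes above 0 (3.19%) and 151 below 0 (1.35%), and without control ICM replicate 2 it called 176 above 0 and 226 below 0. In both settings the control ICM is 1 library that is assumed to vary like the others, and which direction had more calls depended on the library kept. Control ICM replicate 1 had been set apart partly by its high level of the listed TE genes. Leaving it out therefore enlarges their control difference through the choice of library, and no conclusion on these genes is drawn from that setting. Without it, Krt18 had a log2 fold change of -6.78 in control and -2.61 under Max MO. Tspan8, a tetraspanin, was at -6.88 and -3.12. These control values rest on control ICM replicate 2, the library with the least TE signal. In that setting 0 of 22 epiblast genes were called by limma, and of the 23 primitive endoderm genes Dab2, P4ha2 and Fgfr2 were called above 0.

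Genes called in control whose difference between the contrasts had an unadjusted p under 0.05 were named by their size in control. Towards ICM they were Rgcc, Ei24, Slc6a15, Abcg1 and Epha4. Rgcc, a regulator of the cell cycle, was at 34.5 and 61.6 TPM in control ICM and 0 and 0.985 TPM in control TE (5.06, adjusted p = 0.0096). Under Max MO it was at 13.0 and 27.2 TPM in ICM and 3.93 and 4.45 TPM in TE (1.94, adjusted p = 0.044), so the difference was called there too, and the contrasts differed by -3.13 (adjusted p = 0.174). Slc6a15, an amino acid transporter, was at 18.3 and 23.6 TPM in control ICM and listed at 0 in all 4 TE libraries, and was at 1.15 and 2.03 TPM in Max MO ICM. Ei24 was at 95.1 and 69.6 TPM in control ICM and 1.15 and 5.45 TPM in control TE, and at 12.4 and 9.84 TPM in ICM and 4.58 and 8.15 TPM in TE under Max MO.

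Towards TE they were Mir3112, Prom1, Prmt2, Sorbs3 and Panx1. Prom1, the membrane glycoprotein prominin, was at 13.9 and 17.1 TPM in control TE and 0 and 0.0118 TPM in control ICM. Under Max MO it was at 20.2 and 12.7 TPM in TE and 9.02 and 10.5 TPM in ICM, without a call (adjusted p = 0.394). The channel Panx1 and the methyltransferase Prmt2 were listed at 0 in both control ICM libraries, including the one with high TE signal, and overlapped between the lineages under Max MO. Panx1 was at 9.68 and 20.3 TPM in Max MO ICM and 17.7 and 11.6 TPM in Max MO TE, and Prmt2 at 7.87 and 18.4 TPM in ICM and 15 and 11.1 TPM in TE. The difference between the contrasts had adjusted p-values of 0.146, 0.146 and 0.159 for Prom1, Panx1 and Prmt2 in all libraries and of 0.021, 0.010 and 0.037 without control ICM replicate 1.

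A list of lineage genes was also taken from 6 ICM and 6 TE libraries of somatic cell nuclear transfer (SCNT) embryos, which enter none of the contrasts above. In those libraries 11 of 10173 genes (0.108%) were called higher in ICM and 7 (0.0688%) higher in TE. Under Max MO 9 of the 11 ICM genes were called in the same direction, with a median log2 fold change of 2.74, and 1 of the 7 TE genes, with a median of -1.92, and 10 of 11 and 7 of 7 had the same sign. In control 7 of 11 and 1 of 7 were called, with medians of 2.82 and -2.22. Over all genes tested, 3.55% were called higher in ICM and 4.48% higher in TE under Max MO, and 1.72% and 1.2% in control. Without control ICM replicate 1 the control medians were 3.335 and -3.18. The ICM genes called under Max MO included Spp1, Spic, Tcl1, Mgarp, Jam2 and Glrx, and the TE gene was Hspb2, a small heat shock protein. Mgarp, a mitochondrial protein, was at 489 and 525 TPM in Max MO ICM and 18.6 and 39.2 TPM in Max MO TE, and Jam2, a junctional adhesion molecule, at 92.5 and 66.8 TPM in ICM and 0.508 and 15.3 TPM in TE. Lgals1, a galectin, was at 120.2 and 110.5 TPM in ICM and 804 and 486 TPM in TE without a call. Gm16367 and Gm16513, 2 further ICM genes, lie on chromosome 5 and have parallel levels across the libraries, and as possible copies of one another they may share reads. The count depended on how the SCNT list was made (10 as given, 24 with SCNT replicates 4 to 6 alone, 20 with quantile normalization, 17 with a block for the replicate number). SCNT replicates 1 to 3 held fewer genes at 1 TPM, 6177 to 6771 in ICM and 8401 to 8728 in TE. Replicates 4 to 6 held 9011 to 10032 in ICM and 9284 to 9812 in TE. With replicates 4 to 6 alone, 53 of 10436 genes were called higher in SCNT ICM and 11 higher in SCNT TE.

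Transcript length moved with the lineage difference under Max MO. Over 4 equal groups of genes by the length of their longest annotated transcript, the median log2 fold change of ICM over TE was 0.35, 0.05, -0.16 and -0.38 from the shortest to the longest under Max MO. In control it was between -0.02 and -0.01 in every group. Of the genes called higher in ICM, 183 were in the shortest group and 30 in the longest, and of those higher in TE, 60 and 158. With the trend on length removed from each library, 303 of 10791 genes (2.81%) were called higher in ICM and 360 (3.34%) higher in TE. Epiblast genes then had 10 calls, primitive endoderm genes 10 towards ICM and 1 towards TE, TE genes 4 and junction genes 7 towards TE and 1 towards ICM. Calls lost in that setting included the 3 Dppa genes, Cdh1 (adjusted p = 0.090), Aqp8 (0.058), Eomes (0.056) and Suz12 (0.076), and Pou5f1, Fgf4, Klf2, Gata4, Col4a1, Lrp2 and Ocln were called with it too. What set the trend was not tested.

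**Figure D5:**
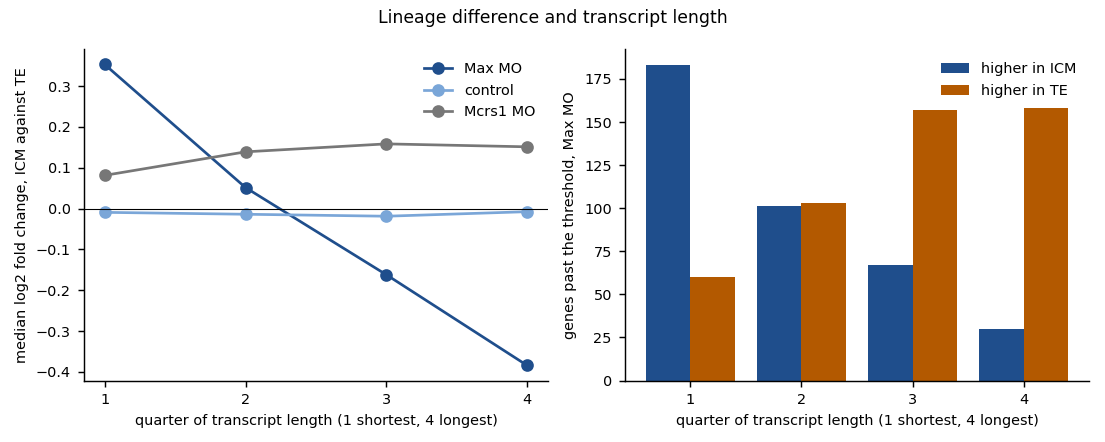
Left, median log2 fold change of ICM over TE in 4 groups of genes by transcript length, under Max MO, in control and under the Mcrs1 MO, and right, number of genes called higher in ICM or in TE under Max MO in each group. Under Max MO the median runs from 0.35 in the shortest group to -0.38 in the longest, and genes higher in ICM from 183 to 30.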

How the data were processed

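Reads were trimmed by the authors with cutadapt 1.16, aligned to mm10 with HISAT2 and assembled with StringTie, per the labels and the study's methods. The deposited tables hold, for each locus of each library, TPM, FPKM and coverage as the authors' StringTie run wrote them. TPM sum to the same total over all loci of a library and were summed here over the loci of each named gene. The deposited FPKM and coverage values were used only to gauge depth. The files hold no counts, so no count model was fitted and no interval or floor for counting error is given. An exact 0 may be a gene that was missed.

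Genes with a mean of at least 1 TPM over the 12 morpholino libraries were tested with limma 3.58.1 (R 4.3.3, moderated with a trend) on log2(TPM + 1), in 1 fit of 6 groups of 2 libraries, with 10.92 residual plus prior degrees of freedom. All adjusted p-values are from limma, by Benjamini-Hochberg over all genes tested. A gene was called where that p was under 0.05 and the levels differed 2-fold or more. The 2-library ranges are given as both values. On simulated data with 200 changed genes among 11219, the Max MO comparison recovered 63% of changes of 2 and 81% of changes of 3 on the log2 scale, and 7 of 151 calls were false. The simulated noise was normal, independent between genes and equal in all groups, and only genes with a mean log2(TPM + 1) above 3 were changed. It held no deviating library and no trend on transcript length, so these rates are not error rates of the real comparison.

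The named genes were the members of 17 gene lists, of which the called ones and some others are described, the 10 largest changes in each direction (mean of at least 5 TPM, no overlap), and 5 in each direction for genes called in both Max MO and control and for genes called in control with a different contrast. The members, lists and rules were chosen with earlier results of these data known. Of the listed symbols 4 were absent from the tables, and some listed genes are not reported here. Transcript lengths were those of the longest GENCODE vM21 transcript of each gene symbol, and 10791 genes (96.2%) had a length. Promoters were from RefSeq (GRCm38.p6). The alternatives were a pseudocount of 0.1, other filters, scalings and fits, the replicate number as a block, and each library left out. Removing the trend on transcript length was chosen after the data were seen. Figures were drawn with Python 3.11.15, numpy 2.4.6, pandas 2.3.3 and matplotlib 3.10.9.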

Additional observations from a re-analysis of the deposited data

How the results depend on the processing

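The Max MO comparison called 901 genes, and 663 to 944 genes under a pseudocount of 0.1, a mean of at least 5 TPM, TPM rescaled over annotated genes, quantile normalization, the largest locus of each gene, the replicate block and the length trend removed. With every gene above 0 TPM it called 456, in the fit of the 8 Max MO and control libraries 192, and in the fit of only the groups compared 1429. Leaving out 1 library gave 41 (without Max MO TE replicate 1) to 1825 genes (without control ICM replicate 1). The control comparison called 328 genes, 152 with every gene above 0 TPM, 0 by limma in both smaller fits, and 2 (without control TE replicate 1) to 2283 (without control ICM replicate 1) with 1 library left out. The Mcrs1 MO comparison called 0 by limma, 10 with every gene above 0 TPM, 36 in the fit of only the groups compared and 0 to 12 with 1 library left out. For the difference between the Max MO and control contrasts the counts were 0 by limma, 1 with a pseudocount of 0.1, 45 with every gene above 0 TPM and 0 to 507 with 1 library left out. Genes shared by Max MO and control numbered 120, 36 with every gene above 0 TPM, 0 in both smaller fits and 1 to 750 with 1 library left out. Of the SCNT lineage genes 10 were called under Max MO, 24 with SCNT replicates 4 to 6 alone, 20 with SCNT quantile normalization and 17 with the SCNT replicate block. The cause was not tested. The median of the FGF list turned from 0.04 to -0.04 with TPM rescaled, and that of the PRC1.6 list from -0.03 to 0.02 with quantile normalization. More genes were higher in TE than in ICM under Max MO (503 against 398), and fewer without Max MO TE replicate 2 (56 against 68), while in control the order turned from 135 against 193 to 1352 against 931 without control ICM replicate 1.

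The labels number the ICM and TE libraries 1 and 2 in each treatment. Same-numbered libraries deviated from their group means with correlations of 0.128 in control, -0.0216 under Max MO and -0.00887 under the Mcrs1 MO, so the numbers were not taken as pairs. With the replicate block the Max MO comparison called 944 genes (a block for each treatment and number) or 901 (a number shared by all groups), the control comparison 311 or 362, and the genes shared numbered 144 in both, while the other 2 comparisons called 0 by limma. The depth in reads is unknown, and 2 libraries a group limit every value.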
